A study of Mus musculus with 4 samples.

Results

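The genes described are ligands of the bone morphogenetic protein (BMP) and growth and differentiation factor (GDF) family, namely Bmp2, Bmp3, Bmp4, Bmp5, Bmp6, Bmp7, Gdf5, Gdf6 and Gdf10. They were chosen by gene symbol, and all 9 were found among the 23107 genes listed in the deposited tables. BMP and GDF ligands are secreted dimers that bind type I and type II serine/threonine kinase receptors, whose signal runs through receptor-regulated Smads to target genes such as the Id genes. Secreted antagonists bind the ligands outside the cell. In the developing tooth, BMP signals pass between epithelium and mesenchyme and are known for their part in patterning and in the formation of mineralised tissue.

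The RNA came from sorted tdTomato+ cells of mandibular molars, labelled as PTHrP+ cells of the dental follicle, the mesenchyme around the developing tooth. The mice were at postnatal day 8 and had received tamoxifen at postnatal day 3. The conditional heterozygotes, cHet, had the genotype Ptch1(+/-) and the conditional knockouts, cKO, had Ptch1(-/-); Ptch1 encodes the receptor that restrains hedgehog signalling. Each genotype had 2 libraries, numbered 0 and 1 and always given in that order. Both groups carry tdTomato and were given tamoxifen, the labels name no Cre line, and no label ties a library to an animal of its own. The p-values therefore cover only library-to-library spread, which may be technical.

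Scaled counts are the authors' gene counts on a common scale for all libraries, with totals of 69361760 to 71228342, and FPKM values are per length of transcript. Library cHet_1 stood apart: it was at 0 for 34 genes that had at least 100 scaled counts in each other library, against 0 to 3 such genes elsewhere. It had 9850 genes with at least 1 FPKM, against 11355 to 12360 in the others. Over the genes tested below, log2 values of cHet_0 correlated at 0.791 with cHet_1 but at 0.893 with cKO_0 and 0.858 with cKO_1. The targeted gene, Ptch1, had 12867 and 5438 scaled counts in the cHet pair and 22420 and 23341 in the cKO pair. Its total was thus higher in the libraries labelled cKO, and a total over the gene does not show whether part of it was deleted. All 10 follicle markers examined, among them Pthlh and Postn, were above 0 in each library. Some were barely so: Scx was at 1.08 scaled counts in cKO_0, and Tbx18 at 20.2 and 9.42 in the cHet pair. All 10 dental epithelium markers were above 0 as well. Their sum was 0.84% and 2.09% of scaled counts in the cHet pair and 1.39% and 3.92% in the cKO pair. Most of each sum was the enamel genes Amelx and Ambn. In the fit described below, values were above 0 for 5 of these 10 markers and below 0 for 5. The groups lay apart for Epcam alone, which was lower, at 4828 and 2448 against 621 and 1002 scaled counts. The part of these markers in the ligand values was not tested. Leukocyte, endothelial, osteoclast and Schwann or neuronal markers summed to between 0.00198% and 0.0404%.

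None of the ligand genes passed the test between cKO and cHet. In limma's test on log2(scaled count + 3), with Benjamini-Hochberg adjustment over 14297 genes, 0 of the 8 ligands that passed the filter had an adjusted p under 0.05, against 0% of all genes. The filter asked for at least 10 scaled counts in 2 libraries, and Gdf6 did not pass it. Adjusted limma p-values of the ligands lay between 0.913 and 0.992. At an unadjusted limma p under 0.05 the ligand count was again 0, against 1.54% of all genes higher and 1.49% lower. Fitted differences (cKO minus cHet) were above 0 for 3 ligands and below 0 for 5. Their median was -0.21 on the log2 scale, where the median gene stood at 0.12. With 2 libraries against 2, an exact two-sided permutation test of 1 gene cannot give a p below 0.333.

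**Figure D1:**
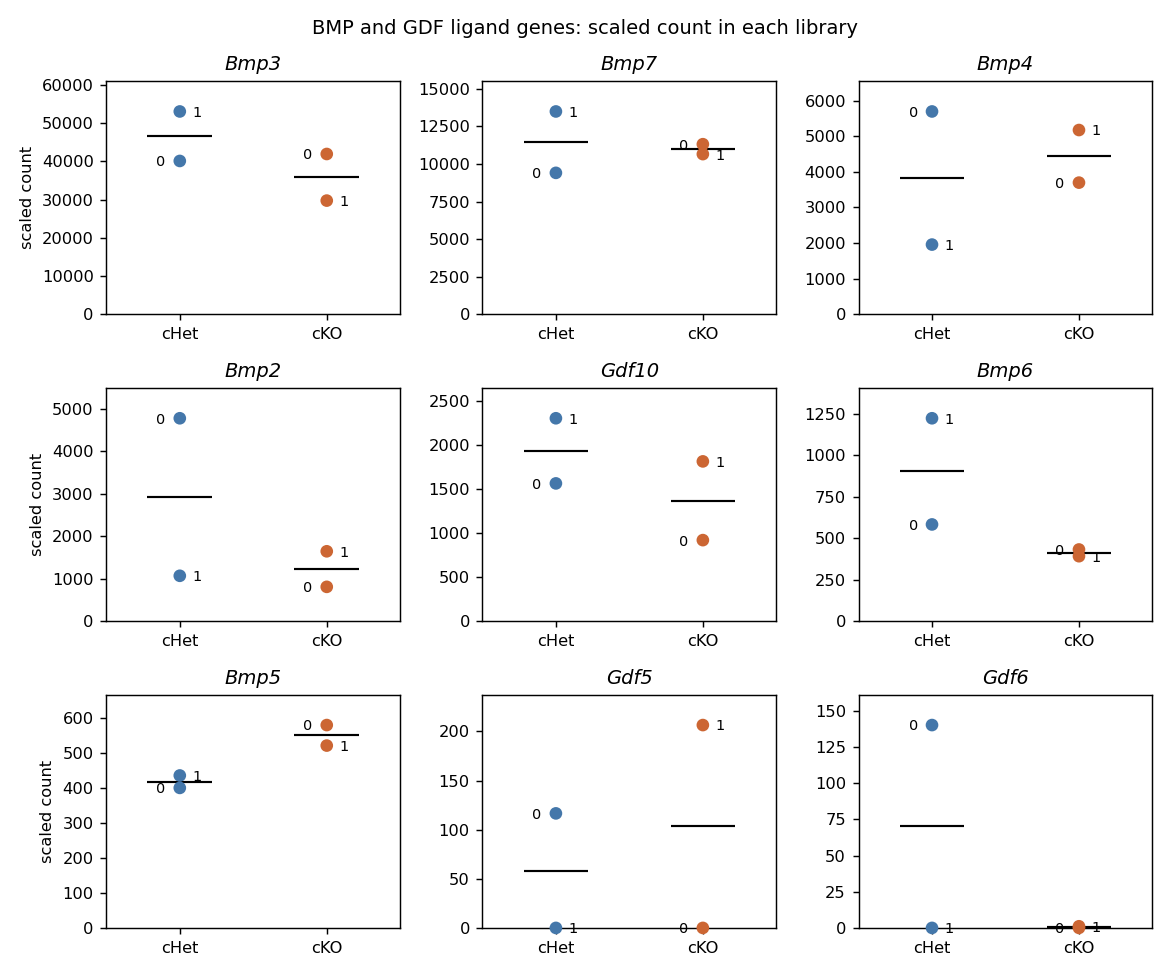
Scaled count (y axis, linear from 0) of each of the 9 ligand genes in the cHet (blue) and cKO (orange) libraries; the digit beside a point is the library number and the bar is the group mean. The groups separate for Bmp5 (higher in cKO) and Bmp6 (lower in cKO) and overlap for the other ligands, with Bmp2 and Bmp4 far apart within cHet.

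Bmp3, which is known to oppose osteogenic BMPs, had the highest mean level per length of transcript. The gene (ENSMUSG00000029335.5; chromosome 5, 98854415 to 98884396, plus strand, mm10) had 40086 and 53022 scaled counts in the cHet pair and 41906 and 29723 in the cKO pair. Library cHet_1 was the highest and cKO_1 the lowest, and cKO_0 lay just above cHet_0, so the groups overlapped. Means were 46554 ± 9147 in cHet and 35815 ± 8615 in cKO (SD, n = 2 each), a log2 difference of -0.39 (SE 0.27; 95% interval -1.01 to 0.24; limma adjusted p = 0.913). It was -0.63 without cKO_0 and -0.59 without cHet_0, but -0.18 without cHet_1 and -0.14 without cKO_1. Per length, Bmp3 was listed at 196 and 124 FPKM in the cHet pair and 205 and 73.1 in the cKO pair.

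Gdf10, also called BMP3B and closely related to Bmp3 (ENSMUSG00000021943.7; chromosome 14, 33923587 to 33937983, plus strand), had 1564 and 2304 scaled counts in the cHet pair and 920.1 and 1814 in the cKO pair. Library cKO_0 was the lowest, while cKO_1 lay between the cHet libraries. The fitted log2 difference was -0.55 (SE 0.69; 95% interval -2.15 to 1.04; limma adjusted p = 0.929); it ran from -0.07 without cKO_0 to -1.04 without cKO_1, with -0.28 without cHet_1 and -0.83 without cHet_0. Per length, Gdf10 was listed at 9.33 and 12.5 FPKM in the cHet pair and 5.63 and 10.5 in the cKO pair.

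Bmp7, an osteogenic BMP of the subgroup that also holds Bmp5 and Bmp6 (ENSMUSG00000008999.7; chromosome 2, 172868012 to 172940321, minus strand), had 9406 and 13488 scaled counts in the cHet pair and 11311 and 10653 in the cKO pair. Both cKO libraries lay between the cHet libraries, which were 1.43-fold apart. Means were 11447 ± 2887 in cHet and 10982 ± 466 in cKO (SD, n = 2 each), with a log2 difference of -0.04 (95% interval -0.69 to 0.62; limma adjusted p = 0.992). The sign depended on the library left out, from -0.30 without cHet_0 to 0.22 without cHet_1. Per length, Bmp7 was listed at 71.4 and 138 FPKM in the cHet pair and 89.3 and 113 in the cKO pair.

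Bmp6 was the ligand whose groups lay apart in both units. The gene (ENSMUSG00000039004.6; chromosome 13, 38345107 to 38500302, plus strand) had 583 and 1223 scaled counts in the cHet pair and 432 and 391 in the cKO pair. Both cKO libraries were below both cHet libraries, and cHet_1 was 2.1-fold above cHet_0. Per length, Bmp6 was listed at 3.68 and 7.66 FPKM in the cHet pair and 2.81 and 2.46 in the cKO pair, in the same order of groups. Means were 903 ± 453 in cHet and 412 ± 28.7 in cKO (SD, n = 2 each), a log2 difference of -1.03 (SE 1.21; 95% interval -3.82 to 1.75; limma adjusted p = 0.922). It was -1.57 without cHet_0 and -0.50 without cHet_1. Groups lay apart in this direction for 14.2% of all genes in scaled counts and for 8.75% of the 12278 genes with at least 1 FPKM in 2 libraries, so 1 ligand is near the background.

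Several marker sums lay in the same order as Bmp6 in scaled counts. The 10 follicle markers made up 0.554% and 0.747% of scaled counts in the cHet pair and 0.333% and 0.305% in the cKO pair. In FPKM the follicle sums overlapped, at 2657 and 1379 in the cHet pair and 1595 and 681 in the cKO pair. Fitted values were below 0 for 9 of the follicle markers and above 0 for 1 (Tbx18), and the Pthlh groups overlapped. The 8 odontoblast and dental papilla markers made up 0.272% and 0.237% against 0.0725% and 0.0874%. The 8 osteoblast and cementoblast markers made up 5.63% and 5.17% against 3.38% and 3.33%. Nearly all of this sum was Col1a1, at 3673200 and 3370910 against 2122200 and 2099810 scaled counts, so its order is that of Col1a1. Of these 8 markers, fitted values were above 0 for 3 and below 0 for 5, and the groups lay apart, all lower, for 3. None of the markers in these lists was at 0 in any library. Their part in the Bmp6 values was not tested, and in bulk RNA fewer cells of a type and less RNA per cell cannot be told apart. Txndc5, a gene on the opposite strand, shares 224 of the 3900 exonic bases of Bmp6 and was also lower, at 54016 and 66109 against 46872 and 42896 scaled counts. Reads of overlapping genes can be mixed here, since no source used states strand-specific counting.

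Bmp5 lay in the opposite order in scaled counts. The gene (ENSMUSG00000032179.7; chromosome 9, 75775364 to 75900310, plus strand) had 401 and 436 scaled counts in the cHet pair and 581 and 522 in the cKO pair. Both cKO libraries were higher, and libraries of 1 group were within 1.11-fold of each other. Means were 419 ± 25.2 in cHet and 551 ± 41.5 in cKO (SD, n = 2 each), a log2 difference of 0.39 (95% interval -2.63 to 3.42; limma adjusted p = 0.983). Whichever library was left out, it lay between 0.32 and 0.47. Limma's SE of 1.31 is set largely by genes of like abundance and is wider than the spread of these 4 values. Per length, Bmp5 was listed at 2.43 and 0.898 FPKM in the cHet pair and 3.41 and 1.25 in the cKO pair, and the groups overlapped. Between libraries of the same number, cKO was the higher in FPKM, but no label pairs libraries by number. Groups lay apart in the higher direction for 18% of all genes in scaled counts and for 11.2% in FPKM, so 1 ligand is near the background here too. Gm26903, an antisense gene, shares 1878 of the 4025 exonic bases of Bmp5, which makes the Bmp5 values uncertain.

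The bases before the Bmp5 start are shown because Bmp5 was the ligand higher in both cKO libraries and because hedgehog signals act through GLI transcription factors. They come from RefSeq (GRCm38.p6), at chr9:75775115-75775363 on the plus strand of mm10, with a GC content of 43% against a median of 52.7% over all promoters in that table. Capitals would mark a GLI motif, and there are none.

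Bmp5: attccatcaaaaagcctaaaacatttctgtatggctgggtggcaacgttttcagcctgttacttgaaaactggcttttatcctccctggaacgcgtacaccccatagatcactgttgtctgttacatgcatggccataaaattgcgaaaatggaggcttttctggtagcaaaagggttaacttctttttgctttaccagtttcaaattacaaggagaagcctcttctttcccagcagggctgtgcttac

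The GLI consensus GACCACCCA was searched on both strands of the RefSeq promoter windows, which held 4 of the ligands (Bmp4, Bmp5, Bmp6 and Gdf10). Of these, 0 held it exactly and 0 with up to 1 mismatch, against 0.253% and 6.74% of all 32851 promoters. This says only that these letters are not in these windows.

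Bmp2 and Bmp4, a closely related pair of osteogenic BMPs, differed more within cHet than between genotypes. Bmp2 (ENSMUSG00000027358.6; chromosome 2, 133552159 to 133562885, plus strand) had 4777 and 1067 scaled counts in the cHet pair and 807 and 1644 in the cKO pair. Library cHet_0 alone was high, and cHet_1 lay between the cKO libraries. Means were 2922 ± 2623 in cHet and 1226 ± 592 in cKO (SD, n = 2 each), a log2 difference of -0.97 (SE 0.86; 95% interval -2.95 to 1.015; limma adjusted p = 0.913). Leaving out cHet_0 gave 0.11 and leaving out cHet_1 gave -2.05 (cKO_0 -0.46, cKO_1 -1.48), so its direction rested on cHet_0. Per length, Bmp2 was listed at 29.9 and 1.83 FPKM in the cHet pair and 4.91 and 3.66 in the cKO pair. Dmp1, a matrix gene of odontoblasts and osteocytes, named after its values were seen, was also highest in cHet_0. It was at 16999 and 1534 against 478 and 3341 scaled counts. The odontoblast and dental papilla markers were divided in this. Nes, Sp6 and Smpd3 were also highest in cHet_0, but Dspp, Phex and Cd24a were highest in cHet_1 and Lef1 in cKO_0. The part of these genes in the Bmp2 values was not tested.

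Bmp4, a ligand of dental mesenchyme (ENSMUSG00000021835.15; chromosome 14, 46383520 to 46390669, minus strand), had 5696 and 1958 scaled counts in the cHet pair and 3698 and 5174 in the cKO pair. Library cHet_0 was the highest and cHet_1 the lowest, with both cKO libraries between them. Means were 3827 ± 2643 in cHet and 4436 ± 1044 in cKO (SD, n = 2 each), a log2 difference of 0.39 (SE 0.55; 95% interval -0.88 to 1.65; limma adjusted p = 0.935). It was 1.16 without cHet_0 (limma adjusted p = 0.179) and -0.38 without cHet_1, and leaving out cKO_0 or cKO_1 gave 0.63 and 0.15. Per length, Bmp4 was listed at 42.6 and 12 FPKM in the cHet pair and 28.1 and 31.9 in the cKO pair. An antisense gene listed at 0 in each library, Gm15217, shares 89 of the 2248 exonic bases of Bmp4. Both Bmp2 and Bmp4 were higher in cHet_0 than in cHet_1, by 4.48-fold and 2.91-fold, and higher in cKO_1 than in cKO_0, by 2.04-fold and 1.40-fold.

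Gdf5 and Gdf6, ligands known for joint formation, were the least abundant. Gdf5 (ENSMUSG00000038259.4; chromosome 2, 155941023 to 155945367, minus strand) had 117 and 0 scaled counts in the cHet pair and 0 and 207 in the cKO pair. In each group 1 library was listed at 0, and the fitted value of 0.40 (SE 3.12; limma adjusted p = 0.992) ran from -2.66 without cKO_1 to 3.47 without cKO_0. Gm15557, an antisense gene, shares 936 of the 2320 exonic bases of Gdf5. Gdf6 (ENSMUSG00000051279.2; chromosome 4, 9844372 to 9862345, plus strand) had 140.1 and 0 scaled counts in the cHet pair and 0 and 1.13 in the cKO pair. Only cHet_0 was above the filter, so Gdf6 was not tested.

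**Figure D2:**
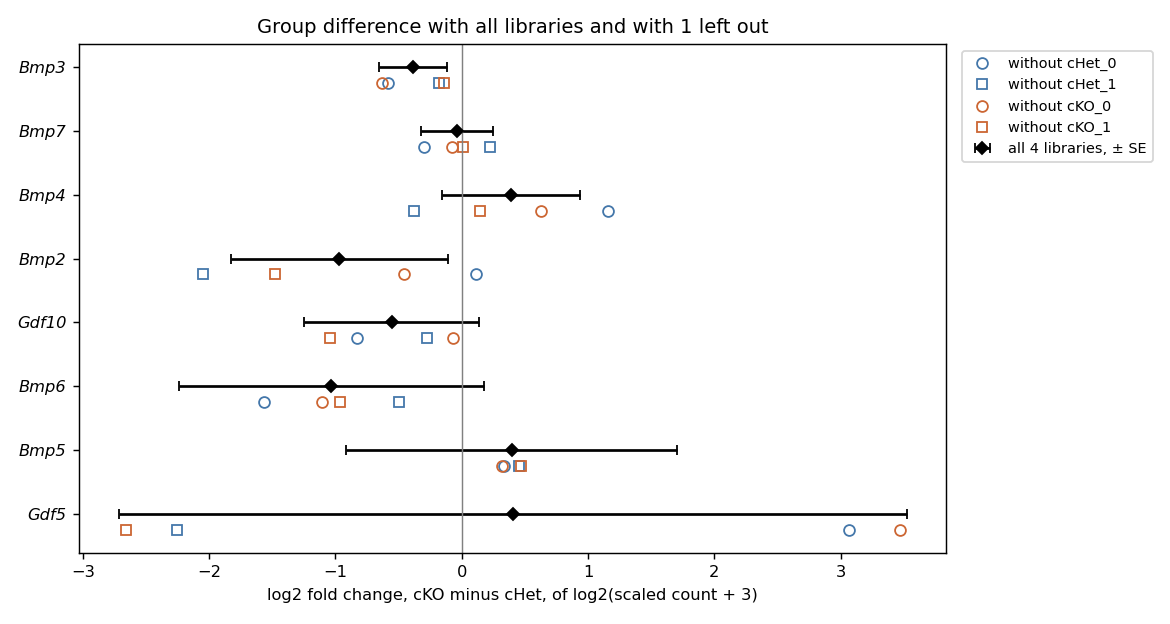
Log2 fold change (x axis, cKO minus cHet) of the 8 tested ligand genes with all 4 libraries (black diamond, bars are limma's SE) and with 1 library left out (open symbols; blue for a cHet, orange for a cKO library; circle for library 0, square for library 1). The open symbols of Bmp2, Bmp4, Bmp7 and Gdf5 fall on both sides of 0, and those of Bmp3, Bmp5, Bmp6 and Gdf10 on 1 side.

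The distance between the cHet libraries exceeded the fitted group difference for 7 of the 8 tested ligands, Bmp5 being the exception. For Bmp6 the 2 were close, at 1.07 and 1.03 log2 units without the sign. The same count was not made over all genes, so it is not read as a trait of the ligands. The median distance was 0.81 log2 units for the ligands and 0.87 for all tested genes. Between the cKO libraries the medians were 0.49 and 0.58.

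Per length of transcript, Bmp3 and Bmp7 together made up most of the ligand total. Their share of the summed FPKM of the 9 genes was 81.6% ± 9.39 in cHet and 82.6% ± 5.88 in cKO (SD, n = 2 each). The sum was 357 and 298 FPKM in the cHet pair and 339 and 237 in the cKO pair, and the groups overlapped. Mean FPKM over the 4 libraries fell in the order Bmp3 (150 ± 62.6, SD), Bmp7 (103 ± 29.1), Bmp4 (28.6 ± 12.6), Bmp2 (10.1 ± 13.3), Gdf10 (9.48 ± 2.88), Bmp6 (4.15 ± 2.40), Bmp5 (1.996 ± 1.148), Gdf5 (0.523) and Gdf6 (0.151). Bmp7 was above Bmp4, Bmp4 above Bmp2 and Gdf10 above Bmp6 in 4 of 4 libraries. Other neighbours changed places: Bmp3 was above Bmp7 in 2 libraries, Bmp2 above Gdf10 in 1, Bmp6 above Bmp5 in 3 and Bmp5 above Gdf5 in 3.

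**Figure D3:**
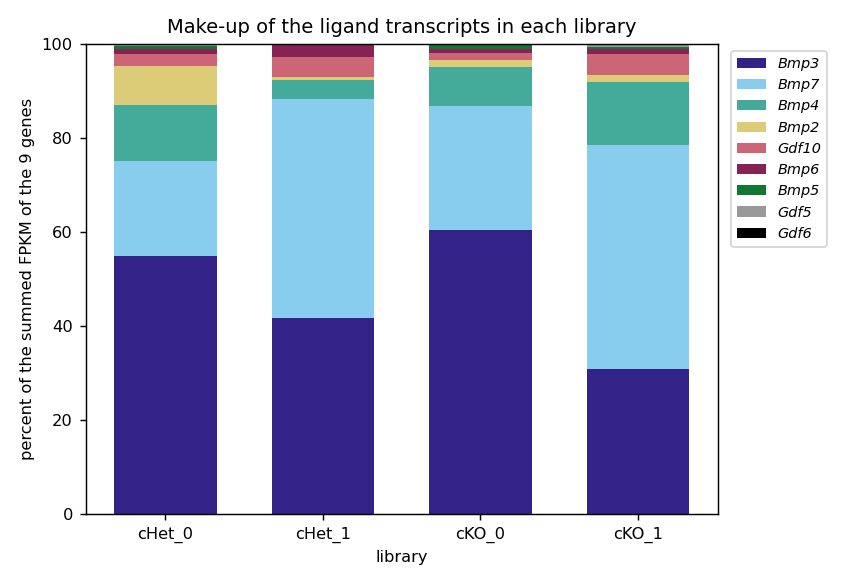
Share of each ligand gene in the summed FPKM of the 9 genes (y axis, percent) in each library. Bmp3 and Bmp7 fill most of each bar, with Bmp3 the larger in cHet_0 and cKO_0 and Bmp7 the larger in cHet_1 and cKO_1.

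The order of Bmp3 and Bmp7 followed the library number rather than the genotype. Their FPKM ratio was 2.75 in cHet_0 and 2.30 in cKO_0 but 0.897 in cHet_1 and 0.646 in cKO_1. The ratio of their scaled counts, which is not per length, was 4.26, 3.93, 3.70 and 2.79 in cHet_0, cHet_1, cKO_0 and cKO_1. For each 1000 scaled counts, Bmp3 was given 4.89 and 4.90 FPKM in the libraries numbered 0 but 2.34 and 2.46 in those numbered 1. Bmp7 was given 7.59 and 7.89 in the former and 10.3 and 10.6 in the latter.

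Bmp2 ran in the same direction as Bmp3, with 6.25 and 6.09 FPKM per 1000 scaled counts in the libraries numbered 0 and 1.72 and 2.23 in those numbered 1. Bmp6 lay between 6.26 and 6.5 in all 4. The median over all tested genes was 5.30 and 5.27 in the libraries numbered 0 and 2.95 and 3.20 in those numbered 1, so the median gene moved in the direction of Bmp3 and opposite to Bmp7. The part of this difference in the FPKM values of the ligands was not tested.

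**Figure D4:**
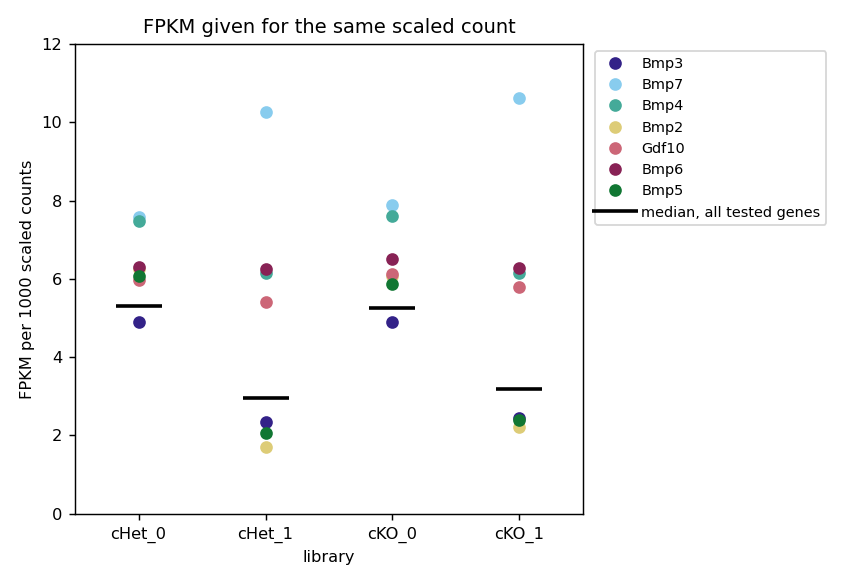
FPKM given per 1000 scaled counts (y axis) for the 7 ligand genes above 0 in each library (points) and the median over all tested genes (black bars). Bmp2, Bmp3 and Bmp5 are lower in cHet_1 and cKO_1 than in cHet_0 and cKO_0, Bmp7 is higher there, and Bmp6 moves least.

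The genes whose centred log2 values lay nearest to Bmp3 over the 4 libraries included Ube2k and Ifngr2, with root mean square differences of 0.00757 and 0.0189 (median over all genes 0.668). For Bmp7 they were Rcc2, 1700058G18Rik and Ap1ar, at 0.0123, 0.0214 and 0.0224 (median 0.616). For Bmp4 they included Lonp2 and Inpp5e, at 0.0194 and 0.0287 (median 0.889). With 4 libraries and 14297 genes to choose from, these are descriptions only.

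The other genes of the pathway were read from the same fit, in which limma called 0 genes of any list. At an unadjusted limma p under 0.05 the BMP pathway lists, with 61 genes tested, held 5 higher genes and 2 lower ones. The higher genes were 4 of the antagonist list and Pcsk5, and the lower ones were Bmp8a and Bambi. Over all genes the shares were 1.54% higher and 1.49% lower. Fitted values were above 0 for 56.3% of all genes. Of 14 other ligand genes, 7 were tested, 4 with values above 0 and 3 below. Bmp8a, a BMP whose near copy Bmp8b makes its counts uncertain, had 3266 and 2663 scaled counts in the cHet pair and 113 and 904 in the cKO pair. It was lower in both cKO libraries, with a log2 difference of -3.19 (SE 1.14; limma adjusted p = 0.913), which ran from -1.70 without cKO_0 to -4.67 without cKO_1. Gdf9, an oocyte factor, had 0 and 0 scaled counts in the cHet pair and 24.8 and 161 in the cKO pair, and Gdf1 had 420.2 and 9.97 scaled counts in the cHet pair and 462 and 737 in the cKO pair. Gdf11, a relative of myostatin, overlapped at 240.5 and 638 against 317 and 113.

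Among 13 receptors and co-receptors tested, 8 had values above 0 and 5 below. The type I receptor gene Bmpr1a had 12684 and 12509.9 scaled counts in the cHet pair and 12928 and 12335 in the cKO pair, the groups overlapping. Acvr1, another type I receptor gene, was at 5743 and 8617 against 4504 and 4848, lower in both cKO libraries in scaled counts and overlapping in FPKM, and the type II receptor genes Acvr2a (2101 and 4082 against 2203 and 1168) and Acvr2b (1071 and 14.7 against 808 and 1651) overlapped. Bambi, a pseudoreceptor that damps BMP signals and is induced by them, had 21547 and 20394 scaled counts in the cHet pair and 7157 and 12846 in the cKO pair. Its log2 difference was -1.13 (SE 0.32, limma adjusted p = 0.913). It was -1.55 without cKO_1 and -0.71 without cKO_0. In FPKM the Bambi groups overlapped. Of the 4 Smad genes, Smad1, at 8039.8 and 7737 against 10054 and 9532, lay apart in scaled counts and overlapped in FPKM. Smad4 overlapped at 18076 and 12544 against 19547 and 15988. Smad5, at 5458 and 2342 against 5200.4 and 4713, and Smad9, at 489 and 11.5 against 112 and 96.5, had fitted values above 0 although cHet_0 was above both cKO libraries, with cHet_1 far lower; the mean scaled count of Smad9 was lower in cKO.

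Of 9 genes that process or release the ligands, 3 had values above 0 and 6 below. Pcsk5, a proprotein convertase, had 9267 and 7283 scaled counts in the cHet pair and 15206 and 13141 in the cKO pair, higher in both cKO libraries by 0.78 log2 units (SE 0.27; limma adjusted p = 0.913). In FPKM the Pcsk5 groups overlapped. Pcsk6, another convertase, overlapped at 8696 and 13891 against 12245 and 6062, as did the fibrillin gene Fbn1 at 35132 and 41556 against 36427 and 31535. Bmp1, which encodes a procollagen and chordin protease and no ligand of this family, overlapped at 25235 and 36343 against 23069 and 26446.

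The antagonist list takes in the membrane protein gene Crim1 besides genes of secreted proteins. Of its 15 genes tested, 12 had values above 0, with a median of 0.92 where that of all genes was 0.12. The groups lay apart in the higher direction for 7 in scaled counts and 4 in FPKM. Over all genes the shares in that direction were 18% in scaled counts and 11.2% in FPKM. The antagonist median was 0.10 without cHet_1, where that of all genes was -0.05. Sostdc1, an antagonist of BMP and Wnt ligands, had 26752 and 17466 scaled counts in the cHet pair and 73159.5 and 73529.5 in the cKO pair, a log2 difference of 1.76 (SE 0.27; limma adjusted p = 0.913). Limma called it without cHet_0, cKO_0 or cKO_1 (adjusted p = 0.0119, 0.00725 and 0.0035) and not without cHet_1 (adjusted p = 0.844). Nog, the noggin gene, was at 3653 and 2100.3 against 4887 and 6239 and differed by 0.99, or 0.60 without cHet_1. Crim1, which encodes a BMP-binding membrane protein, was at 4364 and 2131 against 5748 and 9618 and differed by 1.29, or 0.77 without cHet_1. Nog and Crim1 each had a limma adjusted p of 0.913.

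Of 14 BMP response genes, 6 had values above 0 and 8 below, with a median of -0.13. Id1, an immediate target, overlapped at 6105 and 5703 against 3959 and 6516 scaled counts. The groups lay apart in the lower direction for Smad6, Atoh8, Hey1 and Dlx3 and in the higher direction for Id2, where the shares over all genes were 14.2% lower and 18% higher. In FPKM the groups overlapped for Hey1, Dlx3 and Id2 and lay apart for Smad6 and Atoh8. Smad6, the gene of an inhibitory Smad, had 14137 and 11079 scaled counts in the cHet pair and 9334 and 10261 in the cKO pair. Dlx3, a homeobox gene of mineralising tissue, was at 24494 and 13075 against 11627 and 12206 and Id2 at 14444 and 8447 against 15512 and 16846. Msx1, a homeobox gene of dental mesenchyme, overlapped at 6829 and 2745 against 6020.3 and 7844. The hedgehog readout genes Gli1, at 4132 and 3349.9 against 6388 and 6955, and Hhip, at 62357 and 60651 against 175453 and 160516, were higher in both cKO libraries in scaled counts, as was Ptch1 above. In FPKM the Hhip groups overlapped.

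**Figure D5:**
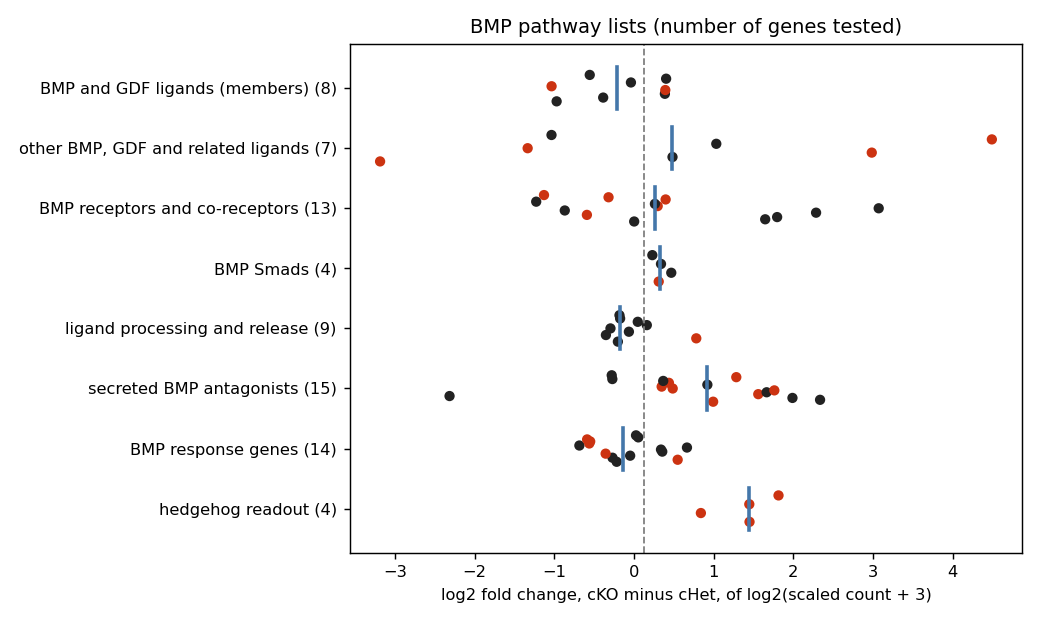
Log2 fold change (x axis, cKO minus cHet) of each tested gene in the BMP pathway lists and of 4 hedgehog readout genes; red points are genes whose groups do not overlap in scaled counts, blue bars are list medians and the dashed line is the median over all tested genes (0.12). The ligand median lies at -0.21, the antagonist median at 0.92 and the response gene median at -0.13.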

How the data were processed

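Per the labels' protocols, PicoPure RNA was amplified with SMART-Seq v4 chemistry and made into Nextera XT libraries. The submitters' processing notes name mm10, TopHat2 2.0.13, Bowtie2 2.2.1 and also Cuffdiff, Cufflinks, DESeq2, FastQC and HTSeq, without roles; strand and annotation are not stated there. The scaled counts were deposited as a normalized signal, read here as gene counts divided by 1 factor per library, and not as raw reads. The FPKM values were also deposited by the authors. A further 16 columns in 4 tables match no label and were not used. Titles number libraries from 1 and columns from 0, so each column was assigned to its genotype alone.

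Limma 3.58.1 (R 4.3.3, trended prior variance) modelled log2(scaled count + 3) by genotype, for genes with at least 10 in 2 libraries, two-sided, with a Benjamini-Hochberg threshold of 0.05. The procedure was run on simulated data to check that the fit recovers known fold changes. The simulated spread was fixed in advance and not taken from these libraries. The check therefore does not show which changes could be called here. The added 3 understates changes of low genes. Count models were not run because the values are not raw counts. Alternatives were other scalings, pseudocounts and filters, FPKM, library weights, no trend, a replicate block and leaving out each library.

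Named were all ligands, Ptch1, Gli1 and Hhip, and up to 4 genes of lowest p in each pathway list. Also named were 3 nearest genes for each of the 3 ligands of highest mean FPKM. Id1, Bmpr1a, Txndc5, Atoh8, Hey1 and the antisense genes were added after values were seen. So were Dmp1 and the markers named beside it, Amelx, Ambn, Epcam and Scx. Some genes that this rule selects are not reported here. Members and lists were chosen with earlier results of these data known. Coordinates are from GENCODE on mm10, 1-based.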

Additional observations from a re-analysis of the deposited data

How the results depend on the processing

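Under the 16 alternatives, limma called 0 ligand genes. Bmp3, Bmp5, Bmp6 and Gdf10 kept the sign of their fitted value in 16 of 16. Other filters on scaled counts, library weights, no trend and the replicate block could not change that value, so they do not test the sign. Bmp7 turned to 0.014 with log2(FPKM + 1), with or without a filter, and to 0.0147 with log2(FPKM + 0.1). Over the libraries left out, Bmp7 ran from -0.30 to 0.22 (0.0061 without cKO_1), Bmp2 from -2.05 to 0.11, Bmp4 from -0.38 to 1.16 and Gdf5 from -2.66 to 3.47 (-2.25 without cHet_1). The ligand median then ran from -0.55 to -0.073. The cause of these changes was not tested.

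Over all genes, 0 were called higher and 0 lower; with log2(FPKM + 1) limma called 3 and 4, and with log2(FPKM + 0.1) 1 and 1. Leaving out a library gave 0 to 1061 genes higher and 0 to 78 lower, the most of both without cHet_0; the lone library of a group is then assumed to vary like the other group. Median-of-ratios scaling moved the median of all genes by -0.10 log2 units, with 3 ligands still above 0. With the column number as a replicate block, 0 ligands and 0 genes were called (lowest ligand limma adjusted p = 0.922). In scaled counts, deviations of same-numbered libraries correlated at 0.0486, so the numbers were not taken as pairs. The FPKM values were not checked in this way, and FPKM per scaled count differed by library number, as given above. The planned count models were not run. With 2 libraries per group, spread between libraries limits each comparison (median SE 0.742 log2 units over all genes).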
